A study of Mus musculus with 6 samples.

Results

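The kinesin genes of Setd2-KO and wild-type neural progenitor cells (NPCs) are described here. They were found by their symbols in the authors' deposited table: every row whose symbol reads Kif or Kifc, a number and at most 1 letter from a to c was taken, which gave 41 genes of 15095. RefSeq holds 42 mouse genes with such symbols, and Kif2b is the 1 that is not a row of the table. The RNA-seq experiment compared 3 Setd2-KO libraries with 3 wild-type libraries of polyA RNA from mouse embryonic stem cells that had been differentiated for 8 days, the last 4 of them with retinoic acid (5 uM). Both genotypes went through the same culture and share one isogenic background, and the Setd2-KO cells were made by CRISPR. The sources used here do not say which knock-out clone gave the libraries, or whether each library had a differentiation of its own, so the spread behind each p-value may be a technical one.

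The table gives, for each gene, a log2 fold change between the genotypes, the average log2 CPM (counts scaled to the size of the library) over all 6 libraries, and the p-value and false discovery rate (FDR) of the authors' edgeR test (glmTreat). The test looks for evidence, beyond the spread of the libraries, of more than a doubling or a halving, that is, of a change past -1 or 1 on the log2 scale. A fold change past that size is not enough to pass, and a gene that does not pass is not shown to be unchanged. Values per library were not used here, so no SD, standard error or depth can be given for a gene, and the spread behind a difference between 2 genes is unknown. Every log2 fold change is written as Setd2-KO over wild type, so that a value above 0 means more RNA in the Setd2-KO NPCs. In bulk RNA, fewer cells of a type and less RNA per cell cannot be told apart.

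Kinesins are motor proteins that use ATP to move along microtubules or to take them apart at their ends. In dividing cells, one set of kinesins builds the spindle, moves chromosomes and closes the cleavage furrow, and their genes are switched on in each cell cycle shortly before division. In postmitotic neurons, other kinesins carry synaptic vesicle precursors, mitochondria and membrane proteins along axons and dendrites, some from genes that are used mainly in neurons and others from genes that are used in nearly all cells. The 41 genes were therefore ordered by role, as 13 mitotic kinesins, 12 kinesins of axonal and dendritic transport (called axonal transport kinesins below) and 16 others.

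No kinesin gene passed the authors' edgeR test at an FDR under 0.05. The count was 0 of 41 for genes lower in Setd2-KO NPCs, where 2.11% of all genes were called, and 0 of 41 for genes higher in Setd2-KO NPCs, where 1.54% of all genes were called, and such shares of 41 genes come to less than 1 gene each. At an unadjusted p under 0.05 from the same test, 1 kinesin gene lay lower (3.43% of all genes) and 0 lay higher (2.54% of all genes). This gene was Kifc2, which was also the 1 kinesin gene with a log2 fold change under -1 (4.7% of all genes), and 0 kinesin genes had one over 1 (3.83% of all genes). The sizes below are therefore given as descriptions. The median log2 fold change was 0.04 over the 41 genes against 0.01 over all genes, and 22 of 41 lay above 0. Taken by role, however, the medians of both main groups lay on different sides of 0.

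The 13 mitotic kinesins in the table, as listed here, lay above 0. Their median log2 fold change was 0.31, the middle 50% spanned 0.21 to 0.39, and 23.2% of all genes lay above that median. Across all genes, 50.8% lay above 0. The axonal transport kinesins had a median log2 fold change of -0.57, the middle 50% spanned -0.67 to -0.34, and 10 of 12 lay below 0. Of all genes, 12.98% lay below this median. The difference of the medians was 0.89 on the log2 scale, and the mitotic kinesin had the higher value in 155 of 156 pairs of a mitotic and an axonal transport kinesin. The 1 exception was the pair of Kif15 (0.11) and Kif5b (0.14). The roles were assigned with results of these data known, no test was run on the lists, and the separation depends on the roles. In the broad lists described below, Kif2a (-0.09) counts on both sides, so that not every mitotic kinesin lies above 0. Kif16b (0.21) counts there as an axonal transport kinesin and lies above the mitotic Kif15 and Kifc5b (0.17).

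**Figure D1:**
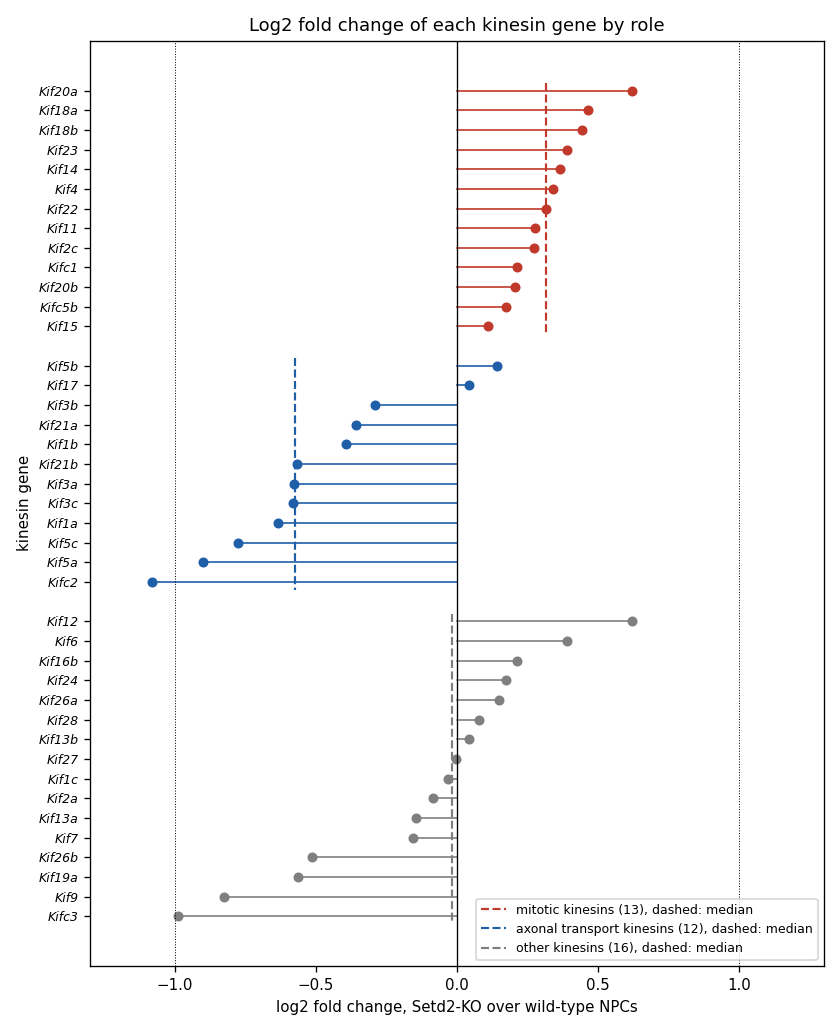
Difference between Setd2-KO and wild-type NPCs (x axis, log2 fold change) for each of the 41 kinesin genes (y axis), grouped by role; points are genes, the dashed lines are medians and the dotted lines mark -1 and 1, the size that the authors tested against. The 13 mitotic kinesins lie right of 0, between 0.11 and 0.62, and 10 of the 12 axonal transport kinesins lie left of it, with Kifc2 past -1.

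Among the mitotic kinesins, the largest value belonged to a motor of cytokinesis. Kif20a, which brings the chromosomal passenger complex to the central spindle, had a log2 fold change of 0.62, that is, 1.54 times the wild-type level, with an average log2 CPM of 6.83 and an FDR of 1. Its family also holds Kif23 (0.39), the motor of the centralspindlin complex that marks the plane of cytokinesis, and Kif20b (0.21), which acts in the final separation of daughter cells. Both members of the group that dampens microtubule growth at kinetochores and in astral microtubules were close to each other, at 0.47 for Kif18a and 0.44 for Kif18b. Kif14, which gathers at the midbody with citron kinase, followed with 0.36.

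The spindle and chromosome motors are given next. The chromokinesins Kif4 and Kif22, which bind chromosome arms, had log2 fold changes of 0.34 and 0.31. Kif11 (Eg5), which pushes spindle poles apart, had 0.28, and Kif15, which can do so in place of Kif11, had the lowest value of the list, 0.11. Kif2c (MCAK), which takes microtubules apart at centromeres, had 0.27. Kifc1, a motor that walks the other way along microtubules and focuses spindle poles, had 0.21 and its copy Kifc5b had 0.17. The canonical transcripts of Kifc1 and Kifc5b were 96.8% identical over 2446 aligned bases, so the reads of this pair may not be separated and both values are uncertain. No other pair of kinesin transcripts aligned over more than 1236 bases. The mitotic values lay between 0.11 and 0.62, and each FDR was 1 in the authors' edgeR test.

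1 mitotic kinesin falls outside the symbol pattern. Cenpe, which carries chromosomes to the spindle equator, stood at -0.26 on the log2 scale, on the other side of 0 from the 13 mitotic kinesins with a Kif or Kifc symbol.

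Kif11 and Kif20b lie on chromosome 19, whose genes had lower values in the Setd2-KO NPCs as a group. The 509 genes of chromosome 19 had a median log2 fold change of -0.37 and 80.4% of them lay below 0. Relative to the median of their chromosome, Kif11 stood at 0.65 and Kif20b at 0.57, close to the 0.58 of Kif20a, so that on this scale both genes stand at the top of the mitotic list with Kif20a. For the other members, the medians of their chromosomes lay between -0.02 and 0.08. With each gene taken relative to its own chromosome, the mitotic median was 0.34 and the axonal median -0.60. Whether the shift of chromosome 19 lowers the values of Kif11 and Kif20b was not tested.

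**Figure D2:**
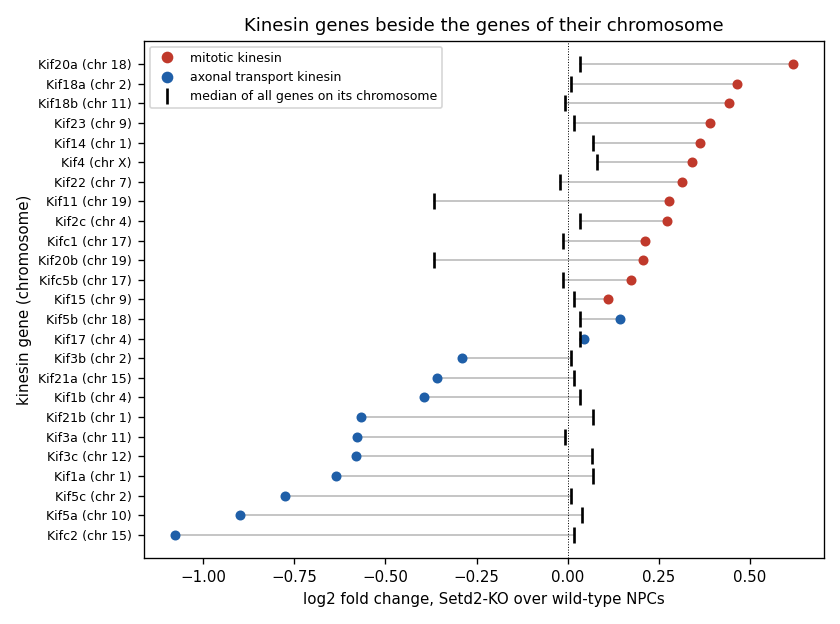
Difference between Setd2-KO and wild-type NPCs (x axis, log2 fold change) for each mitotic and axonal transport kinesin (points; y axis, with the chromosome) beside the median of all genes on the same chromosome (bars). Most bars lie close to 0, and the bars of Kif11 and Kif20b lie at -0.37, below the points of both genes at 0.28 and 0.21.

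Because the mitotic kinesins lay on the same side of 0, their promoters were read for the motifs that mark genes of late cell cycle. Such genes often carry a cell cycle homology region (CHR; TTTGAA or TTTAAA), which is bound by the MuvB complexes that silence them in resting cells and switch them on before mitosis, together with boxes for the factor NF-Y (CCAAT). E2F sites mark genes of the G1 to S transition, and they were searched as TTCCCGC, as the related form TTTGGCG and as the further form TTTCGCG. All motifs were searched on both strands in windows of 250 bases before and 50 bases after the start of transcription from RefSeq (GRCm38.p6), of which 33 kinesin genes had at least 1. Neither CHR form contains a CCAAT box on either strand, although neighbouring matches could share a base, and TTTAAA reads the same on both strands.

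A CHR match was found in 11 of 13 windows of mitotic kinesins (84.6%), in 1 of 10 windows of axonal transport kinesins (10%) and in 2 of 14 windows of the other kinesins (14.3%), against 19.5% of the 14876 windows of genes in the table and 27.6% of all 32851 windows. Kif2b, which has no row in the table, is among the 13 and had none, and neither had Kif18a. The 13 are therefore not the 13 of the fold changes, since Kif20a, the mitotic kinesin of the largest value, has no window in the promoter table, and of the axonal transport kinesins Kifc2, Kif5a, Kif5b and Kif21b have none. CCAAT was found in 9 of 13 mitotic windows (69.2%) and 4 of 10 axonal windows (40%), against 37.5% for the genes of the table and 37.4% of all windows. Both motifs together were present in 8 of 13 mitotic windows (61.5%) and in 0 of 10 axonal windows, against 7.66% for the genes of the table and 10.7% of all windows. E2F sites were found in 2 of 13 mitotic windows (15.4%) and 2 of 10 axonal windows (20%), against 11.2% for the genes of the table and 6.72% of all windows. Both axonal windows with an E2F site belong to Kif1b, which has 2 overlapping windows that hold the same matches. These 2 windows are also among the 4 axonal windows with CCAAT, and the 10 axonal windows come from 8 genes. A match shows that the letters are there, and no binding was measured.

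The CHR matches of the mitotic kinesins also lay close to the start. In 10 of 13 mitotic windows (76.9%) a match began within 50 bases of it, a distance chosen after the positions had been seen. The same held for 1 of 10 axonal windows (10%) and 1 of 14 windows of the other kinesins (7.14%). Among the windows of genes in the table the share was 5.24%, and among all windows 8.28%. Kifc1 and its copy Kifc5b count as separate windows here and above. Kif2c had its matches farther upstream, the nearer of them at -103. Kifc1 has both motifs near the start and is not printed, with its CHR at 2 and CCAAT boxes at -74, -45 and 25. Outside the mitotic list, Kif26b (log2 fold change of -0.51) has a CHR at -9 and a CCAAT box at -73. The sequences below show some of the mitotic kinesins with both motifs, from 80 bases before to 30 bases after the start. They read 5′ to 3′ in the direction of transcription, with CHR and CCAAT matches of either strand in capitals. On the other strand, CCAAT reads ATTGG and TTTGAA reads TTCAAA.
Kif11 (chr19:37376302-37376411, + strand): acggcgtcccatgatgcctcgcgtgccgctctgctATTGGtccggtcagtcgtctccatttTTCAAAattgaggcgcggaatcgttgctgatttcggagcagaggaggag
Kif22 (chr7:127042391-127042500, - strand): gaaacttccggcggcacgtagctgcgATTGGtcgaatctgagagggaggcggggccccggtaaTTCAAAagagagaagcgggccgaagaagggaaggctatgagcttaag
Kif18b (chr11:102925095-102925204, - strand): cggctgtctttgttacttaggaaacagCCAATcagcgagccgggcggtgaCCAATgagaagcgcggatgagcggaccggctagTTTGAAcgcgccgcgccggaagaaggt
Kif23 (chr9:61946770-61946879, - strand): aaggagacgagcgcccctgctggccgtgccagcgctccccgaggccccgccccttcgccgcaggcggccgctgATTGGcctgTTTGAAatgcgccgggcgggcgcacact
Kif4 (chrX:100625985-100626094, + strand): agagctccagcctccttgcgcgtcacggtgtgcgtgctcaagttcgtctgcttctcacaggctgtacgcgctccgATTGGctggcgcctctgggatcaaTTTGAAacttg

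In each of these 5 genes a CCAAT box lies upstream of the CHR. The same stretches of 2 axonal transport kinesins that hold none of the motifs searched are shown for contrast. They belong to Kif5c of the neuronal kinesin-1 pair and Kif3c of kinesin-2. Not all axonal stretches are free of matches, since Kif3a and Kif3b hold a CCAAT box and Kif1b an E2F site. The stretch of the mitotic Kif2c holds no match.
Kif5c (chr2:49619206-49619315, + strand): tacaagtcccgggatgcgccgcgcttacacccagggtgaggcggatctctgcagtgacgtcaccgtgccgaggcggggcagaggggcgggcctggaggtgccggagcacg
Kif3c (chr12:3365052-3365161, + strand): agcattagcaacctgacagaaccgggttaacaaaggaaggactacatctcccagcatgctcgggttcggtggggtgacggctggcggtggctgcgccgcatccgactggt

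**Figure D3:**
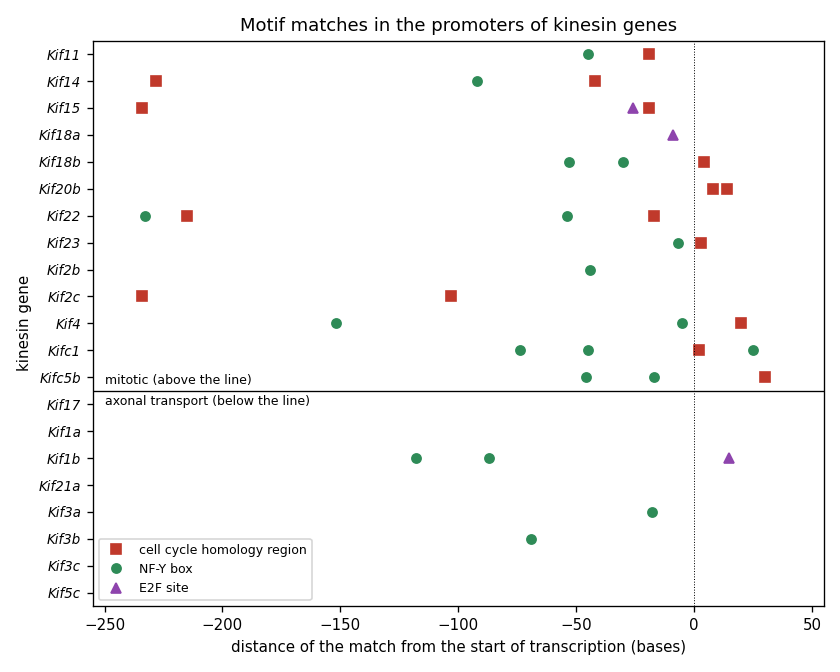
Positions of motif matches (x axis, distance in bases from the start of transcription; y axis, the kinesin gene) in 1 RefSeq window for each of 13 mitotic and 8 axonal transport kinesins; squares are cell cycle homology regions, circles NF-Y boxes and triangles E2F sites. Squares cluster near the start in the mitotic genes above the line, 10 of 13 within 50 bases of it, and none is drawn below the line. The 1 axonal match lies in a second window of Kif1a, which is not drawn.

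The axonal transport kinesins are given by family. Kinesin-1 is the heavy chain of conventional kinesin, which carries mitochondria and vesicles towards the axon tip. Its neuronal genes Kif5a and Kif5c had log2 fold changes of -0.90 and -0.78, that is, 0.536 and 0.584 times the wild-type level, with average log2 CPM of 6.76 and 8.09. The third gene, Kif5b, which is used in nearly all cell types, stood at 0.14 with an average log2 CPM of 7.29. Kif5b thus lay 1.04 above Kif5a and 0.92 above Kif5c on the log2 scale within the same family. The FDR of all 3 genes was 1 in the authors' edgeR test.

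Kinesin-3 is given next, and the neuronal use of its genes was not measured. Kif1a, the carrier of synaptic vesicle precursors in neurons, had a log2 fold change of -0.64, Kif1b, which carries mitochondria and vesicle precursors, had -0.39, and Kif1c, a motor of many cell types that was counted among the other kinesins, had -0.03. The endosome and membrane carriers of this family were near 0, with -0.14 for Kif13a, 0.04 for Kif13b and 0.21 for Kif16b. Kif28 had 0.08. The mitotic member, Kif14, is described above.

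The Kif3 motors of kinesin-2 work as a complex of a pair of motors with the adaptor Kifap3, in axons and in cilia. Kif3a and Kif3c, the second of them enriched in neurons, had nearly the same log2 fold change, -0.58 each. Kif3b, the more widely used partner of Kif3a, had -0.29 and Kifap3 had -0.21. Kif17, a dendritic and ciliary motor, had 0.04 at an average log2 CPM of 0.92, where a fold change is least precise. Of kinesin-4, Kif21b (-0.57) and Kif21a (-0.36), motors that limit microtubule growth in axons and dendrites, lay below 0.

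Kifc2 had the lowest value of all 41 genes. It encodes a motor with its head at the end of the chain, described in mouse neurons, and its log2 fold change was -1.08, or 0.473 times the wild-type level, at an average log2 CPM of 4.23. Its FDR of 0.41 did not pass the authors' edgeR test, although its unadjusted p was 0.021. Kifc3, which acts at cell junctions and centrosomes and belongs to the same family, had -0.99 with an unadjusted p of 0.30 and an FDR of 1 in the same edgeR test.

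**Figure D4:**
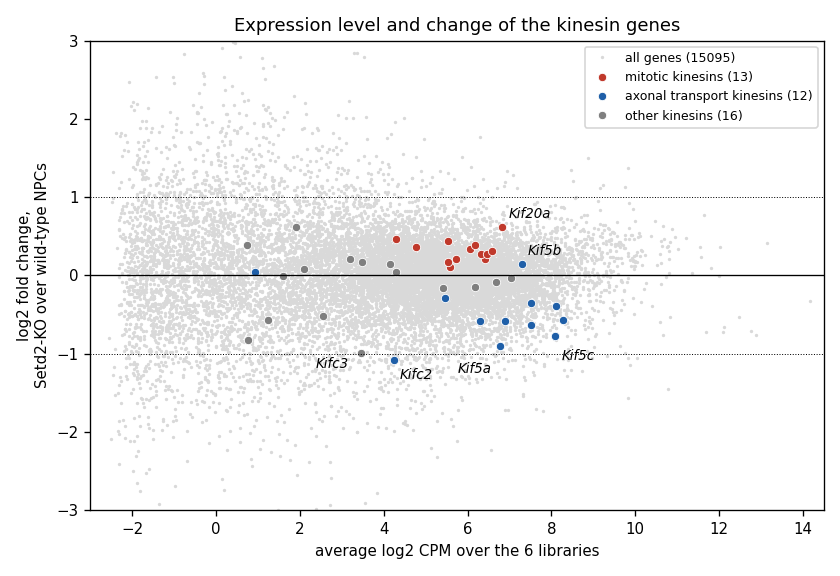
Average log2 CPM over the 6 libraries (x axis) and difference between Setd2-KO and wild-type NPCs (y axis, log2 fold change) for all 15095 genes (small grey points; the y axis ends at -3 and 3) and of the kinesin genes (coloured by role). The mitotic kinesins lie between 4.30 and 6.83 on the x axis, and the axonal transport kinesins below 0 lie between 4.23 and 8.27.

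Several families hold mitotic and other motors, and their members are set side by side here. In kinesin-14, Kifc1 lay 1.29 above Kifc2 and 1.20 above Kifc3 on the log2 scale. In kinesin-8, Kif18a lay 1.03 above Kif19a (-0.56), a motor that shortens motile cilia. In kinesin-4, Kif4 lay 0.91 above Kif21b. In kinesin-13, Kif2c lay 0.36 above Kif2a (-0.09), a depolymerase that trims axon branches in mice. Kif2a is counted with both roles in the broad lists below. Kinesin-12 had the opposite order, with mitotic Kif15 at 0.11 and Kif12 at 0.62, a difference of -0.51. These differences are between fold changes, and no spread could be given for them.

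The other kinesins had no common direction, with 7 of 16 above 0 and a median log2 fold change of -0.02. Of the motors of cilia, Kif9 (-0.83, unadjusted p of 0.63 in the authors' edgeR test) lay below 0 beside Kif19a, whereas Kif6 had 0.39, and all 3 had an average log2 CPM under 2. Kif7, which sits at the tip of primary cilia and acts in Hedgehog signalling, had -0.16, its relative Kif27 had -0.00406, and Kif24, which restrains cilium formation at centrioles, had 0.18. Kif26b, known from kidney development in mice, had -0.51 and its relative Kif26a had 0.15. Kif12, known from kidney and liver epithelia, had 0.62, the largest value of the 41 genes, at an average log2 CPM of 1.92. Each of these genes had an FDR of 1 in the authors' edgeR test.

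Most genes that work with the mitotic kinesins lay on the same side of 0. The 25 partners as listed include Cenpe, itself a mitotic kinesin outside the symbol pattern. Of the 25, 21 had a log2 fold change above 0, against 50.8% of all genes, with a median of 0.43. The authors' edgeR test called 0 of them in either direction, where it called 2.11% of all genes lower and 1.54% higher, and 0 had an unadjusted p under 0.05. Cdk1, the kinase that drives entry into mitosis, had the largest value (0.98), followed by its cyclin Ccnb1 (0.78) and by Aurkb (0.73), the kinase of the passenger complex that Kif20a carries. Prc1, which bundles the central spindle and binds Kif4, had 0.43, Cit, the citron kinase that binds Kif14, had 0.39, and Racgap1, the partner of Kif23 in centralspindlin, had 0.26. Numa1 (-0.29), Incenp (-0.14) and Ckap5 (-0.01) lay below 0 together with Cenpe. Incenp lies on chromosome 19, and relative to the median of that chromosome it stood at 0.23, on the other side of 0.

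Most adaptors of axonal transport lay below 0 with the motors. Of 23 light chains, adaptors and cargo linkers, 19 had a log2 fold change below 0, against 7421 of all 15095 genes. The median of the 23 was -0.32. The authors' edgeR test called 0 of these (2.11% of all genes lower and 1.54% higher), and 0 had an unadjusted p under 0.05. Such shares of 23 genes come to less than 1 gene each. Klc2 (-0.77) and Klc1 (-0.66), light chains that couple Kif5 heavy chains to cargo, stood close to the neuronal heavy chains, and so did Mapk8ip2 (-0.70) and Mapk8ip3 (-0.67), scaffolds that link kinesin-1 to vesicles, and Madd (-0.69), which links Kif1a and Kif1b to vesicle precursors. Klc2 lies on chromosome 19 and stood at -0.40 relative to the median of that chromosome. Klc4 had -0.37 and Klc3 had 0.61. The linkers of mitochondria had smaller values, -0.27 for Trak1, -0.29 for Trak2, 0.09 for Rhot1 and -0.06 for Rhot2. Dynein and dynactin, which move cargo back to the cell body and also serve dividing cells, lay closer to 0, with a median of -0.10 over 26 genes, 18 of them below 0 and 0 called by the same test or at an unadjusted p under 0.05. Actr1a (-0.67) and Dctn1 (-0.44) had the lowest values of that list, and the motor subunit Dync1h1 had -0.34. Above 0 lay 8 genes, the highest of them Dync1i1 (0.88) at an average log2 CPM of -0.55, followed by Hook1 (0.48). Actr1a lies on chromosome 19 and stood at -0.30 relative to the median of that chromosome.

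**Figure D5:**
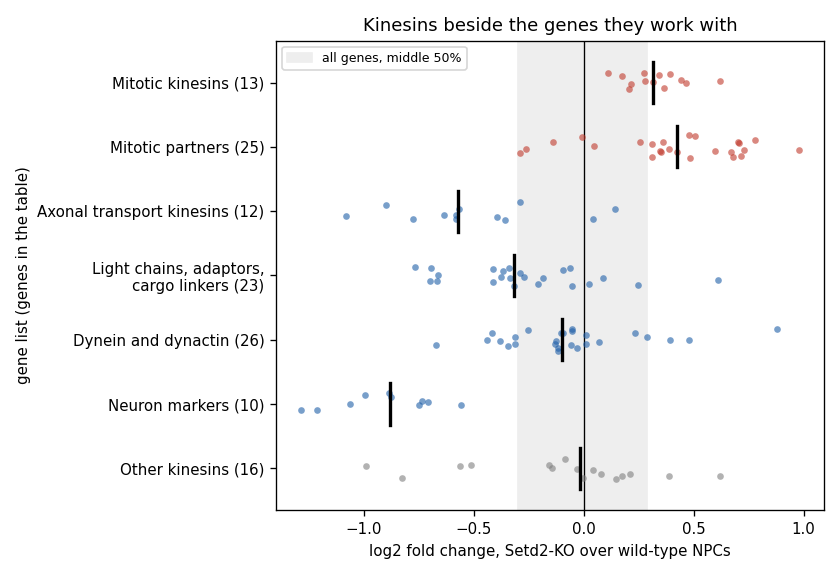
Difference between Setd2-KO and wild-type NPCs (x axis, log2 fold change) for the kinesin genes by role and of the genes that work with them (y axis, with the number of genes); each point is 1 gene, black bars are medians and the grey band is the middle 50% of all genes, from -0.30 to 0.29. The mitotic kinesins and partners have medians of 0.31 and 0.43, and the axonal transport kinesins lie between their adaptors (-0.32) and the neuron markers (-0.88).

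Markers of several cell types were called in the same libraries. The 10 neuron markers, from Snap25 (-0.56) to Elavl3 (-1.28), lay below 0, with a median of -0.88 and 2 called lower by the authors' edgeR test (2.11% of all genes), Elavl3 and Nefm (-1.21). The 8 markers of neural progenitors that were found had a median of 0.06, with Pax6 at 0.74, Sox2 at 0.60 and Fabp7 at -2.91, the last of them called lower, while Sox1 is not a row of the table. Of the 6 markers each of mesoderm and endoderm, 4 and 4 were called higher (1.54% of all genes), with medians of 2.04 and 1.38. Of the pluripotency markers, 0 of 6 were called by the authors' edgeR test, 1 lay lower at an unadjusted p under 0.05 (Nanog, -1.35) and 0 lay higher, and the median was -0.22, with 4 of 6 below 0. Of 5 markers of glia, Olig1 was called higher (2.07), and the median of the 5 was -0.21. The medians of the axonal transport kinesins and of the neuron, pluripotency and glia markers thus lay below 0. Those of the mitotic kinesins, their partners, mesoderm, endoderm and, at 0.06, neural progenitors lay above it. What part the makeup of the cultures had in the kinesin values was not tested.

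Setd2 itself had a log2 fold change of -0.44 and an FDR of 1 in the authors' edgeR test. A CRISPR allele can leave a transcript in place, so this level does not check the genotype.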

How the data were processed

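PolyA RNA of 3 Setd2-KO and 3 wild-type NPC libraries was measured. The authors' deposited table holds log2 fold changes, the average log2 CPM, p-values and FDR from edgeR (glmTreat after TMM and a filter on low counts), which are the authors' own comparison. Its columns were used because the table has no others, and the depth of each library is unknown. The submitters' notes name Trim Galore, STAR, edgeR, NCBIM37 and mm9, whereas the paper's methods name a newer build and Salmon. Which of these made the table is unknown.

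The deposited sign runs wild type over Setd2-KO and was turned. The direction was settled from the gene lists of the study. Recomputing the Benjamini-Hochberg adjustment over 15095 genes gave the deposited FDR to within 3.5e-15. The roles, partner lists, markers and families were written by hand, with earlier results of these data known. All 41 kinesins are named, with fuller values for those of lowest p or largest change, and some partners were named after their values were seen. Kif1bp stands in the table for Kifbp. Chromosomes and canonical transcripts came from GENCODE vM39, where 15066 IDs matched and 29 did not. Transcripts were aligned with blastn 2.17.0, and promoters came from RefSeq. Of the planned analyses, protein features were not analysed here. The adjustment was tested on simulated data. Scripts used Python 3.11.15, numpy 2.4.6, pandas 2.3.3 and matplotlib 3.10.9.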

Additional observations from a re-analysis of the deposited data

How the results depend on the processing

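Over 10 alternatives each, the median log2 fold change ranged from 0.28 to 0.34 for the mitotic kinesins, from -0.60 to -0.36 for the axonal transport kinesins, and from 0.64 to 0.94 for the difference of both medians, and the signs stayed the same. A median was taken as moved when it changed by more than 0.1. This happened with the broad lists, where Kif1c, Kif2a, Kif13a, Kif13b and Kif16b were added to the axonal transport kinesins and Kif2a and Kif24 to the mitotic kinesins, which gave -0.36 for the axonal transport kinesins and 0.64 for the difference. The removal of Kifc5b was chosen after seeing the data. The count of kinesin genes lower in Setd2-KO NPCs was 1 at an unadjusted p under 0.05 and 1 at an absolute log2 fold change over 1 with no test, Kifc2 in both cases, and 0 under the other 4 alternatives. The count of genes higher was 0 under all 6 alternatives. No paired analysis was possible because values per library were not used here, and leaving out a library was not run for the same reason. Fold changes of genes with a low average log2 CPM, such as Kif6, Kif9 and Kif17, are the least precise.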

Other observations

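Levels can be set beside each other once they are divided by length. On the scale of average log2 CPM per kilobase of the canonical transcript, taken over both genotypes, the highest axonal transport kinesins were Kif5c (5.30), Kif21b (5.07), Kif21a (4.81), Kif5b (4.69), Kif5a (4.66) and Kif1b (4.65), and the lowest was Kif17 (-0.96). These levels are averages over both genotypes, so they do not give the order within either one. Among the mitotic kinesins the highest were Kif22 (5.51), Kifc1 (5.09), Kif2c (4.87) and Kif20a (4.74), and the lowest was Kif14 (1.61). Without values per library, the order of neighbours in these lists has no measure of error.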
